A study of Rattus norvegicus with 46 samples.

Results

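The comparison is between frontal lobe RNA of rats given 30 mg/kg chlorpyrifos and of vehicle rats of the same experiment. Its arrays were chosen by their titles: all arrays titled as 30 mg/kg of experiment B (animals 2, 3 and 4) and all titled as its control (animals 1 to 4), which makes 7 of the 46 arrays of the series. All were male Fisher 344 rats aged 11 to 12 weeks that received chlorpyrifos (Sigma) or vehicle once and were killed 96 hours later. The vehicle and the route of dosing are not given in the sources used here. About 30 mg of frontal lobe per animal gave the total RNA, and each array is numbered as a separate animal. One further description line of the 4 vehicle arrays names 1 mg/kg, which their titles, source names and main description contradict, and the arrays were taken as vehicle. Set beside them are the 0.5 mg/kg (3 arrays used) and 5 mg/kg (1 array) rats of experiment B, which share its vehicle animals, and 50 mg/kg rats of experiment A (3 arrays, against 3 vehicle) and 10 mg/kg rats of experiment C (4 arrays, against 3 vehicle). The 30 mg/kg arrays of experiment C were not used, since the values of their probe sets stood in an order unrelated to that of most arrays.

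Chlorpyrifos is an organophosphate insecticide that liver and brain enzymes oxidise to an oxon. The oxon binds the active-site serine of acetylcholinesterase, the enzyme that clears acetylcholine from synapses, and acetylcholine then builds up at muscarinic and nicotinic receptors. Other serine hydrolases, among them butyrylcholinesterase, carboxylesterases and lipases that end endocannabinoid signals, can be bound in the same way. Cholinergic overstimulation is also known to activate the pituitary and adrenal axis, which releases corticosterone in the rat. The question here was which transcripts of the frontal lobe differed 4 days after a single dose.

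Array medians before normalization lay between 266.3 and 280 units of intensity on the 7 arrays, and pairs of them correlated at 0.957 to 0.972 over probe sets (log2 intensity). The ratio of 3′ to 5′ control probe sets of beta-actin, a sign of RNA integrity, was 1.91 ± 0.248 (SD, n = 4) in vehicle and 1.48 ± 0.138 (SD, n = 3) in dosed animals. Every dosed value lay below every vehicle value (two-sided exact permutation test, p = 0.0571, the smallest that 35 regroupings allow). The same ratio of hexokinase was 2.10 in vehicle and 1.91 in dosed animals (exact p = 0.171), and that of Gapdh 1.15 in both (exact p = 0.914). Whether these ratios bear on any gene below was not tested. All 13 neuronal, 17 astrocyte and 9 oligodendrocyte markers on the array passed the filter on dim probe sets, as did 11106 of all 15866 probe sets, so that this count does not tell 1 brain region from another. Levels below are log2 normalised intensity, differences are log2 differences from vehicle ± SE from limma, and an adjusted p is limma's with Benjamini-Hochberg adjustment over all 11106 probe sets kept. In pieces of whole tissue, fewer cells of a type and less RNA per cell cannot be told apart.

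At 30 mg/kg against vehicle, limma called 0 of 11106 probe sets at an adjusted p of 0.05 (0.0% of those tested). An unadjusted p under 0.05 was reached by 1130 probe sets (10.2%), of which 667 were higher (6.01%) and 463 lower (4.17%) in dosed animals. With 1 probe set for each of 8003 genes, 532 genes were higher (6.65%) and 303 lower (3.79%) at that level, 4305 genes were higher with no test (53.8%), and the median difference over all genes was 0.02. All 3 dosed arrays stood above all 4 vehicle arrays for 519 genes (6.49%) and below them for 312 (3.9%). No gene named below passed, so each value is a difference between 7 animals and not a call. The count depended on the filter and on 2 animals: it was 15 with no filter on dim probe sets, 4 with a filter at the 50th percentile, 15 without vehicle animal 2 and 12 without dosed animal 2.

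On the higher side, 4 genes shared the smallest adjusted p. Plcd1, a phospholipase C that cleaves membrane inositol lipids, stood at 8.34, 8.61 and 8.41 in dosed animals 2, 3 and 4 and at 7.83, 8.09, 7.93 and 7.88 in vehicle animals 1 to 4. The groups did not overlap, and the difference was 0.52 ± 0.10 (1.44-fold, adjusted p = 0.0613 in limma). Gtpbp2, a GTPase that helps rescue stalled ribosomes, stood at 9.52, 9.42 and 9.24 against 8.60, 9.12, 8.91 and 8.99, a difference of 0.49 ± 0.10 (adjusted p = 0.0613 in limma). Ccdc85b had the largest difference of the 4 genes at this adjusted p, 0.89 ± 0.18 (1.85-fold), with dosed levels of 8.25, 8.68 and 8.62 and vehicle levels from 7.28 to 7.90. Apba1, the adaptor Mint1 that links the vesicle fusion machinery to the amyloid precursor protein, differed by 0.48 ± 0.10, with dosed arrays at 10.75, 10.74 and 10.58 and the highest vehicle array at 10.42.

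P4htm, a transmembrane prolyl hydroxylase, was higher by 0.37 ± 0.08 and Babam1, a subunit of the DNA damage complex that holds Brca1, by 0.51 ± 0.11 (adjusted p = 0.0676 for each in limma). For Babam1 the groups touched, since dosed animal 2 (9.80) lay just under vehicle animal 2 (9.81). The remaining 9 genes of this side had adjusted p from 0.143 to 0.151 in limma. They hold members of the translation machinery, the seryl-tRNA synthetase Sars1 (0.37 ± 0.09) and the initiation factor subunit Eif3f (0.36 ± 0.09), and Edc4, a scaffold of mRNA decapping (0.36 ± 0.09). Paxx, a factor of DNA end joining, read 9.38, 9.35 and 9.36 against 8.72 to 8.85, the tightest dosed group of the 15. The widest vehicle group was that of Slc22a24, a member of the organic anion transporter family, whose difference of 1.24 ± 0.29 has vehicle animal 2 at 4.82 and the others from 6.26 up, against 7.17 to 7.52 in dosed animals. Pnoc, the precursor of the opioid-like peptide nociceptin, stood at 7.19, 6.90 and 7.61 against 6.25 to 6.57 (0.78 ± 0.20). Bcat2, the mitochondrial aminotransferase of branched-chain amino acids, differed by 0.69 ± 0.17, Rex1bd by 0.67 ± 0.16, and Marchf2, a membrane-bound ubiquitin ligase, by 0.44 ± 0.11.

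**Figure D1:**
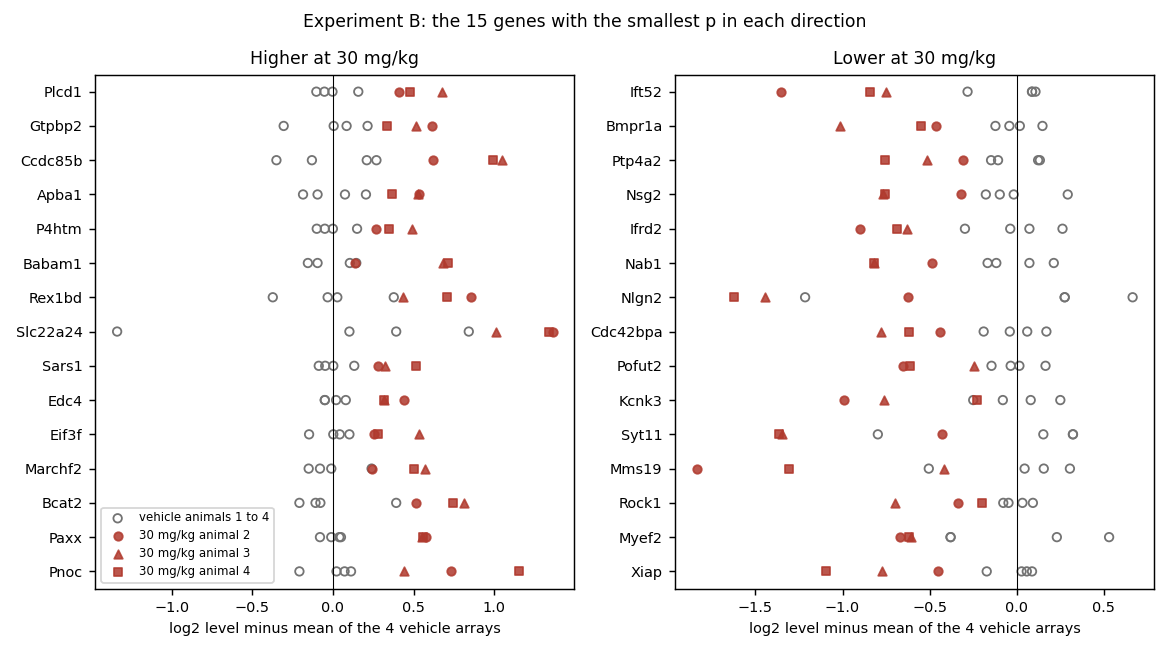
Log2 level minus the mean of the 4 vehicle arrays of experiment B (horizontal axis) for the 15 genes with the smallest p in each direction; open circles are the vehicle animals and filled symbols the 3 dosed animals. Dosed Plcd1 reads 8.34 to 8.61 against at most 8.09 in vehicle, while the groups overlap for Babam1, Nlgn2, Kcnk3, Syt11 and Mms19.

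On the lower side, Ift52 and Bmpr1a had the smallest adjusted p. Ift52, part of the particle that carries cargo along cilia, stood at 7.64, 8.24 and 8.15 in dosed animals and at 9.08, 8.71, 9.10 and 9.08 in vehicle. It was 0.51-fold of vehicle (-0.98 ± 0.20, adjusted p = 0.0676 in limma), and the groups did not overlap. Bmpr1a, a type I receptor for bone morphogenetic proteins, read 7.86, 7.31 and 7.77 against 8.34, 8.28, 8.47 and 8.20 (-0.67 ± 0.14, adjusted p = 0.0676 in limma). Ptp4a2, a membrane-bound tyrosine phosphatase, had -0.53 ± 0.12 (adjusted p = 0.0883 in limma), but its other probe set had -0.03 ± 0.13.

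The other 12 lower genes had adjusted p from 0.143 to 0.212 in limma. Several serve neurons: Nsg2, which sorts receptors in neuronal vesicles (-0.61 ± 0.15), Nlgn2, the adhesion protein of inhibitory synapses (-1.23 ± 0.31), and Syt11, of the synaptotagmin family (-1.05 ± 0.28). Nlgn2 read 8.22, 7.40 and 7.22 in dosed animals, but vehicle animal 2 at 7.63 lay among them while the other vehicle animals read 9.12 to 9.51. Syt11 had the same shape, with vehicle animal 2 at 9.85 between dosed values of 9.28 to 10.22 and the other vehicle animals from 10.80 to 10.97. Kcnk3, a leak potassium channel, was -0.66 ± 0.18 on one probe set and 0.40 ± 0.23 on its other, so that its direction is not settled here. Xiap, an inhibitor of caspases, stood at 7.68, 7.36 and 7.04 against 7.96 to 8.22 (-0.77 ± 0.22), with no overlap. Kinases of the cytoskeleton were Cdc42bpa (-0.61 ± 0.16) and Rock1 (-0.41 ± 0.11), and Nab1, a co-repressor of the Egr factors, was at -0.71 ± 0.17. The rest were Ifrd2 (-0.74 ± 0.18), the iron-sulfur assembly factor Mms19 (-1.19 ± 0.32), the fucosyltransferase Pofut2 (-0.50 ± 0.13, 0.01 on its other probe set) and Myef2, a repressor of the myelin basic protein gene (-0.64 ± 0.18).

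Vehicle animals of experiments A and C, 6 arrays in all, give another view of these 30 genes, added after the values were seen. The 30 were picked for their difference between the groups of experiment B. The vehicle mean of experiment B lay within the range of those 6 arrays for 10 of the 30 (33.3%, against 78.5% of all genes). The dosed mean did so for 9 (30.0%, against 79.9%). The mean of the dosed animals lay nearer to that of those vehicle arrays than the mean of their own vehicle animals did for 16 of the 30 genes, against 50.3% of all genes. Bmpr1a is one of them: its vehicle mean was 8.32 in experiment B, its dosed mean 7.65, and the 6 other vehicle arrays read 7.43 to 7.63. Ccdc85b is another, with 7.63 in its vehicle animals, 8.52 in dosed animals and 8.28 to 8.79 in the other vehicle arrays. Ift52 stood the other way, its dosed mean of 8.01 being below the range of 8.52 to 9.14 that held its vehicle mean of 8.99. Experiment and handling cannot be told apart in such a comparison.

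Of 30 cholinergic genes listed, 16 were measured above the filter, 10 were higher and 6 lower, the median was 0.03, and 0 had an unadjusted p under 0.05. Ache itself was not analysed here, since no probe set carries its symbol in the table used. Butyrylcholinesterase (Bche) stood at 7.30, 7.16 and 6.63 against 7.25, 7.12, 6.84 and 7.28 (-0.09 ± 0.17, adjusted p = 0.916 in limma), fully overlapping. Chrm4, a muscarinic receptor of the inhibitory G protein type, read 7.34, 6.71 and 7.24 against 7.15 to 7.99 (-0.44 ± 0.27). Colq, the collagen tail that anchors acetylcholinesterase, was at 0.24 ± 0.16, and Lynx1, a brake on nicotinic receptors, at 0.15 ± 0.14. Chat, the enzyme that makes acetylcholine, was too dim for the filter, with 6.73, 5.56 and 7.58 against 5.53 to 7.20. With no filter, 2 of 27 cholinergic genes had an unadjusted p under 0.05, both higher. Over all probe sets 1582 of 15866 had such a p in that fit, in either direction. Among the dim members the nicotinic subunit Chrna6 read 6.23, 7.23 and 5.60 against 4.54 to 5.43 (1.18 ± 0.33, adjusted p = 0.179 in limma with no filter). All its dosed values lay above all vehicle values, as they did for 6.49% of the genes that passed the filter. Chrnb4 differed by 0.98 ± 0.36. Without dosed animal 4 the list had 7 of 16 higher and a median of -0.01.

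Among 27 serine hydrolases that organophosphates can bind, 17 were measured, 9 of them higher, with a median of 0.05 and again 0 at an unadjusted p under 0.05. The members with the smallest p were the monoacylglycerol lipases Abhd6 (0.26 ± 0.14) and Abhd12 (0.25 ± 0.15), both overlapping vehicle. Lipe, the hormone-sensitive lipase, was too dim for the main comparison and is named after its values were seen. It read 5.62, 7.31 and 6.96 in dosed animals against 3.67, 4.95, 3.45 and 4.20 in vehicle, with no overlap (2.57 ± 0.55, adjusted p = 0.0574 in limma with no filter). Levels this low lie near the floor of the scale, where a difference is less certain. In the xenobiotic list, 13 of 27 measured genes were higher (median -0.02), and Cyp2d4, a cytochrome P450 of the brain, alone had an unadjusted p under 0.05, with dosed animals 2 and 4 at 8.85 and 8.90, animal 3 above both, and vehicle at 8.34 to 8.85 (0.33 ± 0.12).

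Of the 35 gene lists, that of glucocorticoid-responsive genes had the largest share of members higher in dosed animals (96.4%, against 53.8% of all genes). Corticosterone binds the glucocorticoid receptor, which then moves to the nucleus and switches on such genes in neurons, glia and vessels. Of 28 measured members 27 were higher, the exception being Irs2 (-0.09 ± 0.13), the median was 0.42, and 15 had an unadjusted p under 0.05, where the background over all genes is 6.65%. All 3 dosed animals stood above all 4 vehicle animals for 8 of the 28, and for 6.49% of all genes. None passed: adjusted p in limma ran from 0.212 to 0.484 over the 15. Nfkbia, the inhibitor that holds NF-kappaB in the cytoplasm, had the largest difference, with 8.54, 9.82 and 8.87 against 6.97, 7.33, 7.78 and 8.11 (1.53 ± 0.52, 2.89-fold, adjusted p = 0.296 in limma). Cebpb, a transcription factor of stress and energy metabolism, came next among the 15, with 6.78, 8.24 and 6.90 against 5.13, 6.37, 5.85 and 6.46 (1.36 ± 0.41). Both groups were separate, and dosed animal 3 was highest in each. In the 6 vehicle arrays of experiments A and C, Nfkbia ran from 7.70 to 9.09. That range held its dosed mean (9.08) but not its vehicle mean (7.55). Over the list, such a range held the vehicle mean of experiment B for 22 of 28 genes (78.6%, against 78.5% of all genes). It held the dosed mean for 20 (71.4%, against 79.9%), and the dosed mean was the nearer one for 13 (46.4%, against 50.3%).

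Metabolic genes of the list were Hsd11b1, which regenerates active glucocorticoid inside cells (10.02, 10.76 and 10.31 against 9.59 to 9.97, 0.59 ± 0.17), the lipase Pnpla2 (0.74 ± 0.25), the pyruvate dehydrogenase kinase Pdk4 (0.47 ± 0.17) and glutamine synthetase (Glul, 0.26 ± 0.10). Glul had 3 probe sets, at 0.26, 0.34 and 0.40. Signalling genes were the kinase Sgk1 (10.58, 11.60 and 10.80 against 9.80 to 10.61, 0.86 ± 0.34), the mTOR inhibitor Ddit4 (0.70 ± 0.24), the leucine zipper protein Tsc22d3, known as GILZ (0.39 ± 0.15), the EGF receptor inhibitor Errfi1 (0.41 ± 0.19), the GTPase Rhob (0.33 ± 0.13) and the adhesion scaffold Nedd9 (0.29 ± 0.10). Dusp1, the phosphatase that turns off MAP kinases, read 10.49, 10.44 and 10.43 against 9.47, 9.77, 10.24 and 10.34 (0.50 ± 0.22). The clock gene Per1 was at 0.67 ± 0.28 and the astrocyte connexin Gjb6 at 0.73 ± 0.35. Fkbp5, a chaperone of the receptor and its much-used reporter, read 8.69, 9.93 and 8.37 against 8.17 to 8.55, so that 1 of 3 dosed animals was inside the vehicle range (0.58 ± 0.30).

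Start sites are shown for Nfkbia and Cebpb, which had the largest differences among the 15 genes of the list with an unadjusted p under 0.05, and for Dusp1. Whether the receptor acts at any of them was not tested. Each line is the promoter window of RefSeq on the GRCr8 rat assembly, 250 bases before to 50 after the start, read 5′ to 3′ on the gene's strand. Capitals mark matches of 6 patterns on either strand. Those of the glucocorticoid receptor are its palindromic response element, in which GNACA is followed by any 3 bases and then by its own reverse complement, and TGTTCT, 1 arm of such an element. The NF-kappaB pattern is GGG, any 5 bases and CC. The cyclic AMP response element is TGACGTCA, which both strands read alike. The E-box is CACGTG, which both strands also read alike, and the TATA box is TATAAA. They are Nfkbia at chr6:78597023-78597322 on the minus strand, Cebpb at chr3:176816755-176817054 on the plus strand, and Dusp1 at chr10:17184603-17184902 on the plus strand. Dusp1 is shown as the member of the list whose effect differed between experiments B and A.
Nfkbia: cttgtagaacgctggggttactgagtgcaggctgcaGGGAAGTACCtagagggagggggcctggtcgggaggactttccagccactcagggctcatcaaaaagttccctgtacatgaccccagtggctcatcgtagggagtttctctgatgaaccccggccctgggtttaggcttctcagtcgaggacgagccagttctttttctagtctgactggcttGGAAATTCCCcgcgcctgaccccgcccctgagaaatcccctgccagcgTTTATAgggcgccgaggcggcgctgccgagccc
Cebpb: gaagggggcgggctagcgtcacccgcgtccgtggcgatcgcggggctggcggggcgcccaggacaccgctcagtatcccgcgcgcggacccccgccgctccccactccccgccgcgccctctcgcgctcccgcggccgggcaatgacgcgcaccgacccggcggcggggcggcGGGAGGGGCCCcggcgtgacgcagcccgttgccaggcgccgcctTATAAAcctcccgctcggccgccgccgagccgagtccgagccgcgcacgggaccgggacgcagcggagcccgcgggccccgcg
Dusp1: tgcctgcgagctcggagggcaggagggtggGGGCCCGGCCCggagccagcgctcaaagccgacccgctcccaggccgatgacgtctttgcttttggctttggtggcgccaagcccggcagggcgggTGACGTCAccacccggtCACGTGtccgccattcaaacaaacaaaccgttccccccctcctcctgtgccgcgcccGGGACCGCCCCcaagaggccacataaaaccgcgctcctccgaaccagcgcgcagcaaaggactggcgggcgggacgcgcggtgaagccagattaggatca

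In Nfkbia the capitals are GGGAAGTACC, whose leading base is at -214 from the start site, GGAAATTCCC at -31, which matches the NF-kappaB pattern on the other strand, and TTTATA at 18, a reversed TATA box. Cebpb holds TATAAA at -33 and overlapping matches of the NF-kappaB pattern at -77 and -76. Dusp1 holds TGACGTCA at -124 and CACGTG at -107, besides matches of the NF-kappaB pattern that overlap each other. Windows were found for 25 of the 28 members, 35 windows in all. None held the palindromic glucocorticoid element, which 0.439% of all 33469 windows hold. The single arm was in 8.57% of the 35 windows against 20.7% of all, the NF-kappaB pattern in 51.4% against 47.3%, the TATA box in 25.7% against 14.2%, TGACGTCA in 2.86% against 1.83% and CACGTG in 5.71% against 6.42%. A match describes these letters only, and windows of 1 gene can overlap.

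Dosed animal 3 had the highest level of the 7 arrays for 23 of the 28 genes, while over all 8003 genes it was highest for 16.9%. The median of the list was 0.73 in that animal, 0.18 and 0.23 in dosed animals 2 and 4, and -0.10 to 0.10 in the vehicle animals. Without dosed animal 3, 20 of 28 were higher, the median was 0.25 and 2 had an unadjusted p under 0.05. Nfkbia was then 1.16, Cebpb 0.89 and Sgk1 0.56, with adjusted p of 0.699, 0.690 and 0.808 in limma. Sult1a1, a sulfotransferase, shows the extreme, with 12.16 in dosed animal 3 against 8.59 and 9.08 in the other dosed animals and 8.58 to 9.36 in vehicle.

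**Figure D2:**
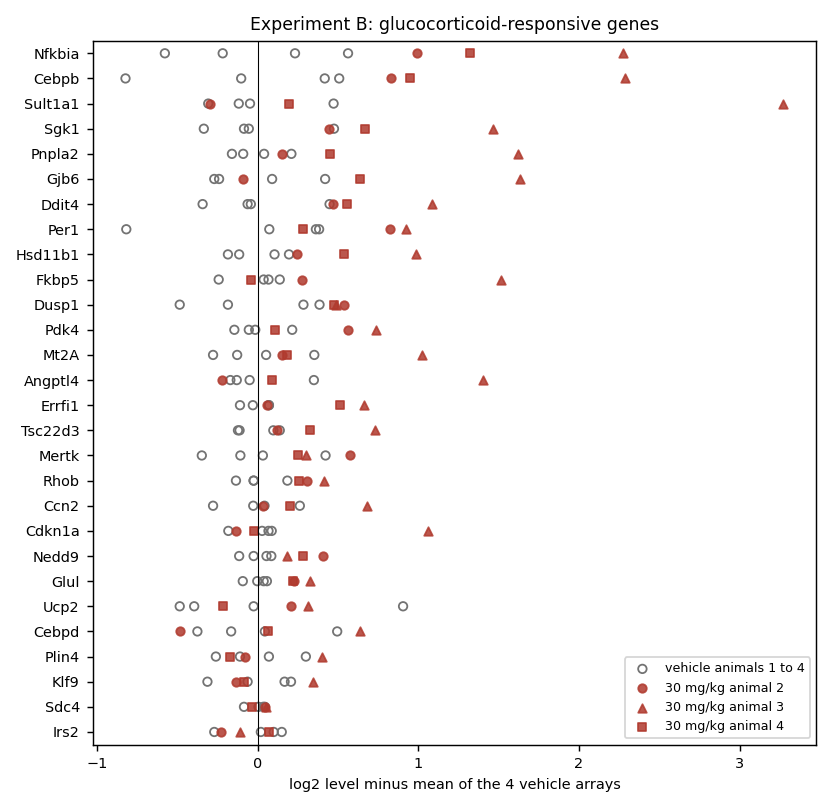
Log2 level minus the mean of the 4 vehicle arrays (horizontal axis) for the 28 measured glucocorticoid-responsive genes, ordered by their difference; open circles are vehicle animals, and the triangle is dosed animal 3. The triangle is the rightmost point for 23 of 28 genes, and all 3 dosed animals exceed all vehicle animals for 8 (over all genes, for 6.49%).

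Inhibitory transmission genes were mostly lower in dosed animals. Of 18 measured genes of the GABA system 12 were lower (median -0.11), where 46.2% of all genes were. At an unadjusted p under 0.05 were 3, all lower (16.67%, against 3.79% of all genes). In each of the 3, all dosed animals stood below all vehicle animals, as they did for 3.9% of all genes. Slc32a1, which loads GABA into vesicles, stood at 9.90, 9.55 and 10.28 against 10.46, 10.87, 10.60 and 10.64 (-0.73 ± 0.26, adjusted p = 0.320 in limma). Gad2, a GABA-making decarboxylase, read 8.33, 8.41 and 8.98 against 9.02 to 10.08 (-0.78 ± 0.30), and Abat, which breaks GABA down, 8.12, 7.90 and 8.26 against 8.37 to 8.79 (-0.42 ± 0.17). Gad1, the other decarboxylase, was at -0.29 ± 0.19 and overlapped vehicle. For Gad2 the vehicle mean of 9.36 lay above the 6 vehicle arrays of experiments A and C (7.92 to 9.01), and the dosed mean of 8.57 lay among them. The vehicle means of Slc32a1, Abat and Gad1 lay within the range of those arrays. Striatal and olfactory bulb neurons are largely GABAergic, and the striatal list (14 of 14 lower, median -0.68) and the olfactory bulb list (4 of 4 lower, median -0.61) were also lower in dosed animals. Their part in these values was not tested. Without dosed animal 3 the median of the GABA list was -0.02 and 0 members had an unadjusted p under 0.05.

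Of 22 glutamate genes 13 were lower, where 46.2% of all genes were, with a median of -0.18 and 4 at an unadjusted p under 0.05, all lower (3.79% of all genes). That count was 1 without dosed animal 3, 7 without dosed animal 2 and 2 without vehicle animal 1, vehicle animal 3 or dosed animal 4, and with the filter at the 50th percentile 8 genes were higher and 8 lower. The kainate receptor subunit Grik2 was separate in the groups, at 7.26, 7.52 and 6.90 against 7.78 to 7.94 (-0.62 ± 0.18, adjusted p = 0.212 in limma). Glud1, glutamate dehydrogenase, read 11.50, 10.79 and 11.34 against 11.54 to 11.82 (-0.43 ± 0.19). The AMPA receptor subunit Gria1 was at -0.50 ± 0.24 and the metabotropic receptor Grm3 at -0.69 ± 0.34, the latter with dosed animal 2 (10.30) inside the vehicle range. Slc17a7, the vesicular glutamate transporter of cortical neurons, was at -0.36 ± 0.23. The vehicle means of Grik2, Glud1, Gria1 and Grm3 lay above all 6 vehicle arrays of experiments A and C, and that of Slc17a7 within their range. For Grm3 the vehicle mean was 10.35 and the dosed mean 9.66, where those arrays read 8.86 to 9.50.

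Release and excitability genes were split. Of 29 vesicle and release genes 15 were higher and 14 lower (median 0.02), a median whose sign turned without vehicle animal 2 (-0.03). Besides Apba1 the higher ones included Dnm1, the GTPase of vesicle recycling, at 12.97, 12.88 and 12.99 against 12.64 to 12.72 (0.26 ± 0.09). Lower ones were Nsf, which takes apart fusion complexes, at 12.19, 12.21 and 12.23 against 12.46 to 12.69 (-0.37 ± 0.11, with -0.26 and -0.23 on its other probe sets), and the vesicle GTPase Rab3b (-0.51 ± 0.18). Dnm1 and Nsf each had non-overlapping groups and small spread. Among 43 voltage-gated channel genes 23 were lower (median -0.06). The potassium channel genes Kcnq3 (-0.47 ± 0.15) and Kcna6 (-0.68 ± 0.26) and the calcium channel subunit Cacnb3 (-0.61 ± 0.24) were lower, while the channel subunits Kcnab2 (0.40 ± 0.18) and Kcnj6 (0.55 ± 0.24) were higher, the last with probe sets that disagree in sign (-0.28, 0.06 and 0.14).

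Neuropeptide and interneuron genes numbered 32, with 15 higher and a median of -0.01. Scg3, a granin of dense-core vesicles, read 11.72, 11.56 and 11.61 against 11.25 to 11.38 (0.29 ± 0.08, adjusted p = 0.202 in limma), above vehicle in all 3. Its relative Scg2 was lower at -0.69 ± 0.24, as were galanin (Gal, -0.59 ± 0.23) and the CART peptide gene Cartpt (-0.78 ± 0.31), of which only galanin had separate groups. Immediate early and activity-regulated genes had 21 of 28 higher (median 0.10), and 3 with an unadjusted p under 0.05 were all higher (10.71%). Over all genes 53.8% were higher, and 6.65% were higher at that p. Without vehicle animal 1 the list had 18 of 28 higher, a median of 0.05 and 0 at that p, and without vehicle animal 2 the count at that p was 1. The 3 genes were the kinase Sik1 (7.98, 8.12 and 7.82 against at most 7.86 in vehicle, 0.47 ± 0.18), Dusp1 and Ier5 (0.43 ± 0.19). Fos, the classical marker of recent firing, read 8.74, 7.30 and 8.63 against 7.67 to 9.49 (-0.11 ± 0.51), Arc 0.22 ± 0.31 and Bdnf 0.21 ± 0.27, with groups that overlapped in each.

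Signalling by bone morphogenetic proteins, TGF-beta and Notch had 24 of 28 measured genes lower (median -0.15), and for 5 of them all dosed animals were below all vehicle animals, where 3.9% of all genes were. Beside Bmpr1a, the activin receptor Acvr2a stood at 7.66, 7.65 and 7.89 against 7.96 to 8.27 (-0.39 ± 0.18), and the target gene Id3 at -0.33 ± 0.16. At an unadjusted p under 0.05 were 3 of the 28, all lower (10.71%, against 3.79% of all genes). Without dosed animal 3, 23 of 28 were lower, the median was -0.13, and the number at that p was 1. Cholesterol synthesis genes had 15 of 19 lower (median -0.16), but dosed animal 3 was the lowest array for 14 of the 19. Without it 8 of 19 were lower and the median was 0.03. Tm7sf2, a sterol reductase, read 3.52 in dosed animal 3, near the floor of the scale, against 6.94 and 7.40 in the other dosed animals. Cyp51 and Idi1 had differences of -0.46 ± 0.23 and -0.41 ± 0.21.

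Respiratory chain genes had 39 of 62 higher (62.9%, against 53.8% of all genes, median 0.05). At an unadjusted p under 0.05, 7 were higher (11.29%, against 6.65% of all genes) and 1 lower (1.613%, against 3.79%). The higher ones were led by the complex I subunits Ndufv1 (11.17, 11.06 and 11.19 against 10.63 to 11.10, 0.36 ± 0.13) and Ndufa11 (0.38 ± 0.14). Dosed animal 4 was the highest array for 33 of the 62, and without it 25 were higher and 37 lower, the median was -0.03, and 1 higher and 2 lower genes had an unadjusted p under 0.05. Ribosomal protein genes had 24 of 39 higher (median 0.05), with Rpl11 at 11.73, 11.89 and 11.78 against 11.44 to 11.69 (0.25 ± 0.08). Dosed animal 3 was highest for 26 of the 39, and without it 17 were higher and 22 lower, with a median of -0.02. Proteasome subunits were 16 higher and 16 lower (median 0.00), and the ATPase subunit Psmc3 read 10.24, 10.10 and 10.36 against 9.62 to 9.94 (0.46 ± 0.14).

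The oxidative stress list had 20 of 27 higher (median 0.08), with heme oxygenase (Hmox1) at 7.60, 7.81 and 7.67 against 7.20 to 7.59 (0.37 ± 0.16), the metallothionein Mt3 at 0.25 ± 0.11, the glutathione peroxidase Gpx1 at 0.53 ± 0.22, and Gclm, which helps make glutathione, lower at -0.40 ± 0.19. In the heat shock and unfolded protein list 17 of 30 were higher (median 0.03). Xbp1, a factor of the unfolded protein response, read 10.84, 10.88 and 10.91 against 10.43 to 10.76 (0.31 ± 0.11), and the mitochondrial chaperone Hspa9 was at 0.36 ± 0.13, with 0.15 and -0.18 on its other probe sets. Without dosed animal 4, 12 of the 30 were higher and 18 lower (median -0.03). Inflammation genes had 10 of 19 higher (median 0.05), and circadian genes 9 of 16 (median 0.02), where the output gene Dbp was lower at 9.73, 9.27 and 9.53 against 9.75 to 10.04 (-0.39 ± 0.19). Of 12 imprinted genes 8 were lower (median -0.09), where 46.2% of all genes were. At an unadjusted p under 0.05 were 2 of them (16.67%, against 3.79% of all genes). They were the growth regulator gene Dlk1 (-0.72 ± 0.31, vehicle animal 3 at 9.65 and the others at 7.28 to 7.69) and Mest (-0.39 ± 0.18). Without vehicle animal 3 the list had 6 higher and 6 lower, and 0 lower genes at that p. The 1 higher gene at that p was Snrpn, a splicing protein gene, at 7.88, 8.79 and 8.17 against 6.57 to 7.46 (1.08 ± 0.29, adjusted p = 0.194 in limma).

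**Figure D3:**
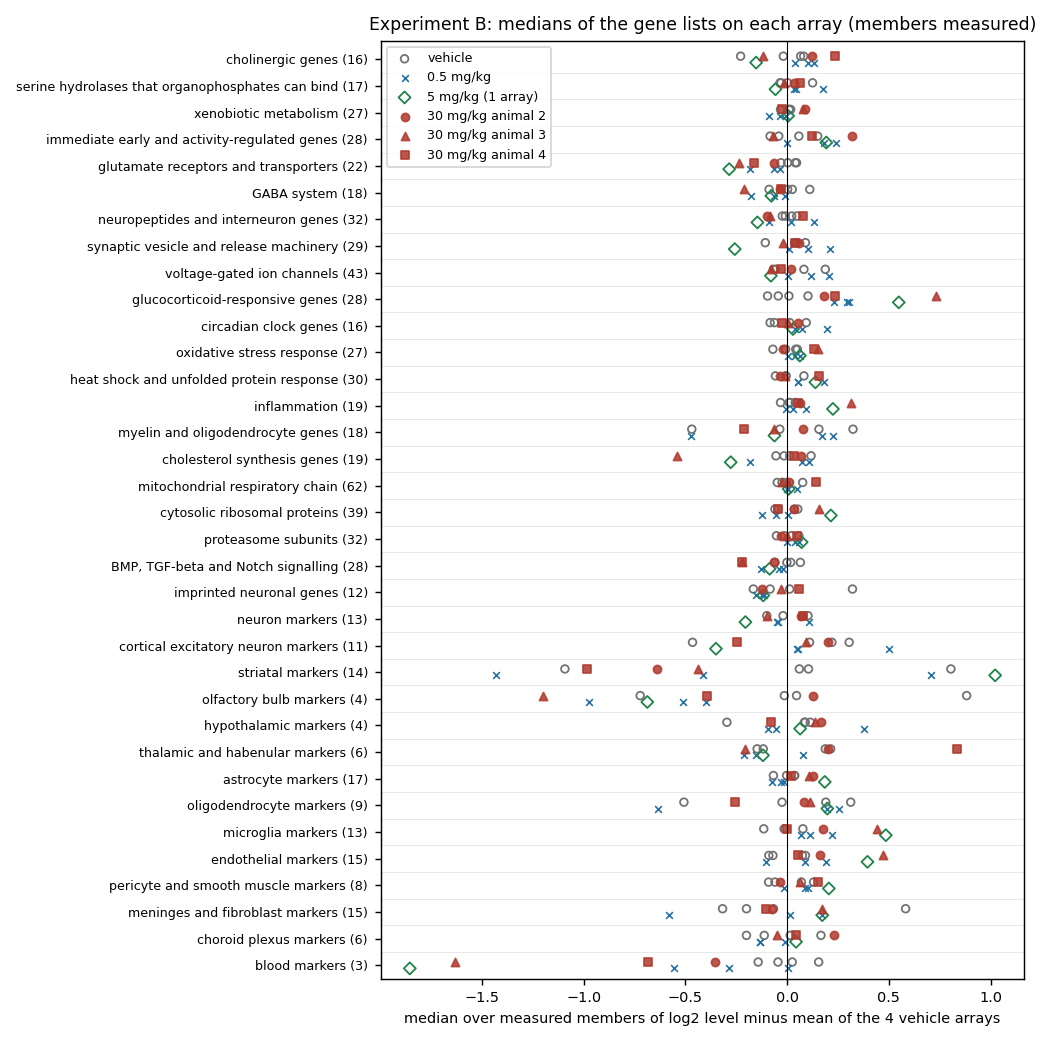
Median over each list's measured members of the log2 level minus the mean of the 4 vehicle arrays (horizontal axis), for every array used of experiment B; the number of members measured follows each list's name. The glucocorticoid median is 0.73 in dosed animal 3 and 0.55 in the 5 mg/kg animal, and the striatal medians span -1.09 to 0.81 in the vehicle animals alone.

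Markers of regions and cell types also differed between the groups. All 14 measured striatal markers were lower in dosed animals (median -0.68), among them the phosphodiesterases Pde10a (-1.10 ± 0.46) and Pde1b (-1.64 ± 0.83), the dopamine receptor Drd2 (-0.72 ± 0.63) and Penk (-0.65 ± 0.62), the enkephalin precursor. Penk read 11.21, 11.42 and 11.20 in dosed animals and 12.06, 12.86, 10.92 and 11.88 in vehicle, so that the groups overlapped. The summed striatal level ran from 7957 to 31488 in vehicle and from 9488 to 14490 in dosed animals (units of normalised intensity), vehicle animal 2 being highest for 14 of 14 markers and vehicle animal 3 lowest for 9. Without vehicle animal 2 the median was -0.34, and without vehicle animal 3 it was -1.07. Cortical excitatory markers had 8 of 11 higher (median 0.12), with the calmodulin-binding Nrgn at 12.65, 12.72 and 12.80 against 11.95 to 12.51 (0.53 ± 0.16, adjusted p = 0.222 in limma). Vehicle animal 2 was lowest for 8 of the 11, and without it 4 were higher and 7 lower, with a median of -0.10. The part that the cut of the tissue has in these values was not tested.

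Vessel genes were higher in 10 of 15 (66.67%, against 53.8% of all genes, median 0.29). At an unadjusted p under 0.05 were 5, all higher (33.33%, against 6.65% of all genes). Slc2a1, the glucose transporter of the blood-brain barrier, stood at 10.58, 11.52 and 10.49 against 9.87 to 10.37 (0.68 ± 0.23, adjusted p = 0.294 in limma). It was the 1 member of the 15 with all dosed above all vehicle animals, as were 6.49% of all genes. The others at that unadjusted p were the adhesion molecule Pecam1 (0.75 ± 0.26), von Willebrand factor (Vwf, 7.58, 9.07 and 8.19 against 7.32 to 7.80, 0.80 ± 0.34), the tight junction gene Cldn5 (0.29 ± 0.13) and the receptor Tie1 (0.37 ± 0.18). Dosed animal 3 was highest for 9 of the 15, and without it the median was 0.10 and 0 had an unadjusted p under 0.05. The summed level of the list was 12285 in that animal, 8188 and 9048 in the other dosed animals and 8150 to 9281 in vehicle. The 3 measured blood markers were lower. With no filter on dim probe sets the list had 7 members, 4 higher and 3 lower, and a median of 0.11. Beta-globin (Hbb) read 11.87, 9.71 and 11.50 against 11.94 to 12.28 (-1.11 ± 0.52), and the heme synthesis gene Alas2 8.07, 6.96 and 7.54 against 8.48 to 8.75 (-1.07 ± 0.64). In both, all dosed animals stood below all vehicle animals, as they did for 3.9% of all genes. Without dosed animal 3 the median of the 3 was -0.52, where it had been -1.07, and Hbb was at -0.45. Microglia markers had 10 of 13 higher (76.92%, against 53.8% of all genes, median 0.13), and 0 had an unadjusted p under 0.05. Among them C1qa, a complement gene, read 11.21 in dosed animal 3 against 9.84 and 9.66 in the other dosed animals and 9.49 to 9.87 in vehicle. Astrocyte markers had 14 of 17 higher (82.35%, against 53.8% of all genes, median 0.10). At an unadjusted p under 0.05 were 3, all higher (17.65%, against 6.65% of all genes). They were the aldolase Aldoc (12.81, 13.25 and 12.88 against 12.50 to 12.81, 0.29 ± 0.11), and Glul and Gjb6, which the glucocorticoid list also holds. Without dosed animal 3 that count was 0. Mbp and Gfap, the main proteins of myelin and of astrocyte filaments, differed by 0.02 ± 0.11 and 0.10 ± 0.21. Oxt, the oxytocin precursor of the hypothalamus, and Ttr, the main product of choroid plexus, had 0.82 ± 1.11 and 0.80 ± 1.52 and overlapped vehicle.

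Dosed animal 3 and the single 5 mg/kg animal shared extreme levels of a few genes. Among the 39 arrays used, they had the highest Sult1a1 levels (12.16 and 11.36), and the other 37 arrays reached at most 11.33. Hbb was lowest of all in dosed animal 3 (9.71) and 10.1 in the 5 mg/kg animal, where the other 37 arrays ran from 10.08 to 13.23. Tm7sf2 had its lowest levels in both, at 3.52 and 4.68 against at least 5.77 elsewhere. The 3.52 lies near the floor of the scale, where a difference is less certain. C1qa was highest in both, at 11.21 and 11.51 against at most 11.20. The related complement genes C1qb and C1qc ranked 2 and 1 of 39 in dosed animal 3, but 5 and 6 in the 5 mg/kg animal. Dosed animal 3 also held the highest level of the 39 for Fkbp5, Nfkbia, Cebpb, Gjb6, Vwf and Slc2a1. The 5 mg/kg animal ranked 13 of 39 for Vwf, 11 for Cebpb and 10 for Gjb6, and for the striatal genes Penk and Drd2 the pair stood apart (ranks 26 and 21 in dosed animal 3, 5 and 2 in the 5 mg/kg animal). Over all probe sets, the difference of dosed animal 3 from the other dosed animals correlated with that of 5 from 0.5 mg/kg at r = 0.27, while the same measure was 0.35 for vehicle animal 2 against the other vehicle animals. The genes of this paragraph were picked after their values were seen. Before normalization the 5 mg/kg array had a median of 112.2 units, where dosed animal 3 had 267.5. Whether that bears on its values was not tested.

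**Figure D4:**
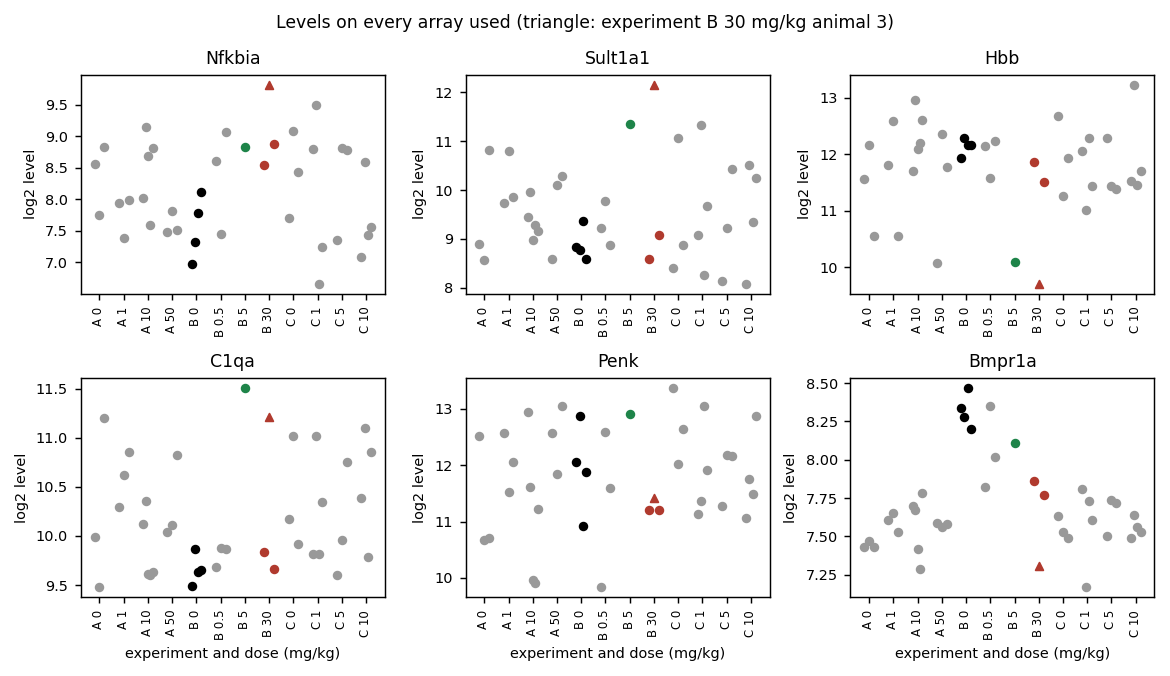
Log2 level (vertical axis) of 6 genes on each of the 39 arrays used, by experiment and dose in mg/kg; black is the vehicle group of experiment B, red its 30 mg/kg group with animal 3 as a triangle, and green its 5 mg/kg animal. Sult1a1 is 12.16 in the triangle against at most 11.36 on any other array, and Bmpr1a is 8.20 to 8.47 in the black points against 7.43 to 7.63 in vehicle arrays of experiments A and C.

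Across the doses of experiment B, which share the vehicle animals, the glucocorticoid list had medians of 0.28 at 0.5 mg/kg, 0.55 at 5 mg/kg (1 animal) and 0.42 at 30 mg/kg. Its medians at 50 mg/kg in experiment A and at 10 mg/kg in experiment C, each against own vehicle, were -0.06 and -0.01. Nfkbia stood at 0.82, 1.28 and 1.53 in the order of dose in experiment B, and at -0.78 and -0.74 in experiments A and C. The striatal medians were -0.37, 1.02 and -0.68 in experiment B, 0.84 in experiment A and -0.92 in experiment C, where 0 of 14 were higher. For the vesicular GABA transporter Slc32a1 the values were -0.80, -0.43 and -0.73 in experiment B, and 0.61 and -0.30 in experiments A and C. Over all 11106 probe sets, the 30 mg/kg difference correlated with the 50 mg/kg difference of experiment A at r = 0.02 (Spearman 0.02) and with the 10 mg/kg difference of experiment C at r = 0.17 (Spearman 0.13), with no array in common. These are correlations across genes, which are not independent replicates.

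**Figure D5:**
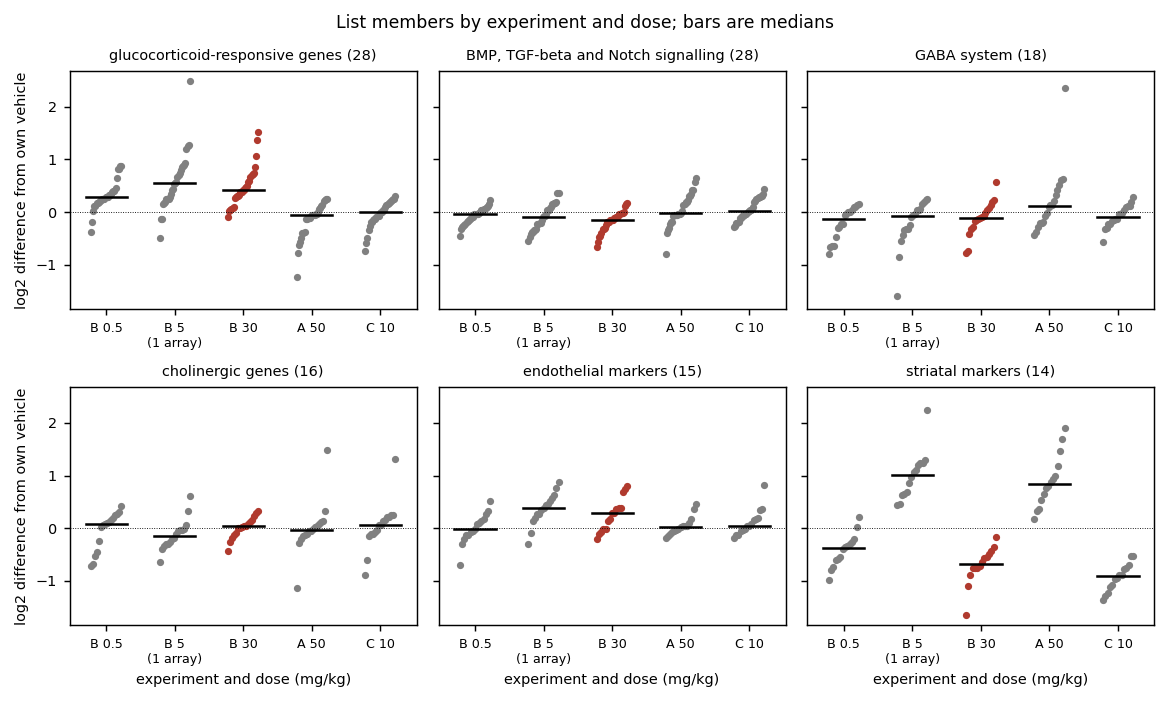
Log2 difference from the vehicle group of the same experiment (vertical axis) for each measured member of 6 lists, by experiment and dose in mg/kg; dots are genes, bars the list medians, and red marks 30 mg/kg. The 3 columns of experiment B share their 4 vehicle animals, and the 5 mg/kg column is 1 animal. The glucocorticoid medians are 0.28, 0.55 and 0.42 in experiment B and -0.06 and -0.01 in A and C.

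Compared directly with 0.5 mg/kg, with no vehicle array in the contrast, 30 mg/kg gave 0 of 11106 calls in limma (0.0%), and 679 probe sets had an unadjusted p under 0.05 (6.11%). The count was 7 with no filter on dim probe sets, 5 without 0.5 mg/kg animal 3 and 1 without 0.5 mg/kg animal 2. Ifrd2 and Mms19, which were low against vehicle, were low against 0.5 mg/kg as well, by -0.70 and -1.37 (adjusted p = 0.479 and 0.395 in limma). Bmpr1a was at -0.42 and Plcd1 at 0.25 in this comparison. Of the glucocorticoid list 20 of 28 were higher at 30 than at 0.5 mg/kg (median 0.14), and 0 passed.

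The effect of 30 mg/kg in experiment B differed from that of 50 mg/kg in experiment A for 4 of 11106 probe sets in limma (0.036%), 3 with a higher and 1 with a lower value in B. Dusp1 was one: it stood at 9.69, 8.74 and 9.15 at 50 mg/kg against 10.23, 10.58 and 10.50 in the vehicle animals of experiment A, an effect of -1.24 where experiment B had 0.50 (difference 1.74 ± 0.33, adjusted p = 0.0453 in limma). Pip5k1c, a kinase that makes the membrane lipid that Plcd1 cleaves, was the other named gene, at 11.35, 11.14 and 11.22 against 10.66 to 11.13 in experiment B (0.30 ± 0.10) and -0.48 in experiment A (difference 0.78 ± 0.15, adjusted p = 0.0453 in limma). The remaining probe sets carry no symbol. The count was 0 with median scaling, with no filter, with trend=FALSE, and 2 with log2(intensity + 16). Leaving out 1 animal of experiment B gave 0, apart from vehicle animal 4, without which it was 10. Of the animals of experiment A, the omission of vehicle animal 2 gave 1, of vehicle animal 4 gave 3, of 50 mg/kg animal 2 gave 21, and of the remaining ones 0.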

How the data were processed

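Each sample was 1 Affymetrix rat array hybridised with labelled total RNA of 1 frontal lobe piece. The deposited values are intensity per probe set on a linear scale, and most arrays share 1 trimmed mean, so the authors appear to have scaled each array. Among the arrays used the exception was the single 5 mg/kg array of experiment B, with a trimmed mean of 205.2 against 500.1 on the others and an array median of 112.2. The summarization software, detection calls and scaling target are not given in the sources used here. Of 46 arrays 39 were used, and 7 were left out because their probe-set values did not correlate with the rest (r from -0.0068 to 0.0025), among them 0.5 mg/kg animal 1 of experiment B and both 30 mg/kg arrays of experiment C.

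Intensity was median scaled, floored at 10.81 units, put on log2 and quantile normalised over the 39 arrays. Of 15866 probe sets that are no controls, 11106 with a mean log2 level above the 30th percentile (6.87) were kept. One linear model over all groups was fitted with limma 3.58.1 in R 4.3.3 (lmFit and eBayes with trend), and p-values were adjusted by Benjamini-Hochberg over all probe sets kept. The fit was tested on simulated data with known changes. A gene is represented by its probe set with the highest mean. Named genes were the 15 with the smallest p in each direction (none passed), up to 5 per list with the smallest p, a fixed set of target and marker genes, and up to 5 per direction in the other comparisons. In the platform annotation 12783 probe sets have 1 symbol, 312 several and 2771 none. Gene names follow RefSeq for the 12748 of these 12783 that matched it by gene identifier, and the platform annotation for the rest. Members and lists were chosen with earlier results of these data known. The labels number the arrays as animals and name no batch, and p-values measure only the spread between these samples. The number of arrays limits the precision. Same-numbered animals did not deviate together (r = -0.08, 0.01 and -0.01), so numbers were not taken as pairs. Alternatives changed the scaling, filter, floor, pseudocount, variance trend, block, samples in the fit, and left out each animal in turn.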

Additional observations from a re-analysis of the deposited data

Results flagged for a closer look

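In the vehicle group of 4, Dixon's gap test set 1 animal apart for 6 of 115 genes tested, where chance sets any of the 4 apart for about 1 gene in 20. For all 6 genes it was vehicle animal 2. That animal was lowest for Ift52 (8.71), Syt11 (9.85), Slc17a7 (11.78) and Snrpn (6.57), and highest for Abhd12 (9.07) and Ndufa11 (10.39). The same animal had the highest level of all 14 striatal markers.

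The effect of 30 mg/kg in experiment B differed from that of 50 mg/kg in experiment A for Dusp1 by 1.74 and for Pip5k1c by 0.78 (adjusted p = 0.0453 for each in limma), Dusp1 being higher in 3 of 3 dosed animals of B and lower in 3 of 3 of A.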

How the results depend on the processing

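Against vehicle the count of probe sets called in limma was 0, and 15 with no filter on dim probe sets, 4 with a filter at the 50th percentile, and 0 to 15 when 1 animal was left out. Against 0.5 mg/kg it was 0, 7 with no filter, and 0 to 5 when 1 animal was left out. For the difference from experiment A it was 4, and 0 with median scaling, 0 with no filter, 8 with the 50th percentile filter, 2 with log2(intensity + 16), 0 with trend=FALSE, and 0 to 21 when 1 animal was left out. With the replicate number as a block it was 0 against vehicle (864 at an unadjusted p under 0.05), 0 against 0.5 mg/kg (657) and 0 for the difference (998). Plcd1 passed in 4 of 18 settings (adjusted p from 0.0141 to 0.309 in limma). Leaving out 1 animal at a time turned the sign of Bche (-0.23 to 0.11, positive at 0.11 without dosed animal 4), Arc (-0.04 to 0.57) and Gfap (-0.02 to 0.26, both negative without dosed animal 2), Fos (-0.37 to 0.35, positive without vehicle animal 3, at 0.28, or dosed animal 3), Sult1a1 (-0.05 to 1.73, negative without dosed animal 3) and Mbp (-0.06 to 0.06, negative without vehicle animal 3). The cause was not tested. Of the other values for single genes, 1994 kept direction and side of the threshold and 28 passed it. Medians near 0 also changed sign when 1 animal was left out for the xenobiotic list (0.06 without dosed animal 4) and the neuropeptide list (0.05 without dosed animal 3).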
